A study of Mus musculus with 10 samples.

Results

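The type I interferon response genes described here are 36 genes that mouse cells transcribe when they sense type I interferon, among them Isg15, the Ifit, Oas and Mx families, the RNA sensors Ifih1 and Ddx58 and the chemokine gene Cxcl10. They were chosen by name as known interferon targets, with earlier results of these data known. All 36 were found among the 46959 gene entries of the deposited count table. RNA was sequenced from 10 libraries in 5 groups of 2, and the series was made to follow immunoglobulin heavy chain transcription under SAHA and after enhancer loss.

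LPS_IL4_SAHA and LPS_IL4 are CD43-negative spleen cells of mice labelled wt, of strain background 129 by 1 label while the growth protocol names KOKI and BLACK-6 mice, cultured for 48 h with LPS (lipopolysaccharide, 5 µg/ml) and IL4 (interleukin 4, 20 ng/ml, given in the growth protocol only), with or without SAHA. SAHA, also called vorinostat, inhibits histone deacetylases, and its dose reads 200 nM in the sample names and 200 ng/ml in the treatment protocol. The 2KO, deltaEmu and RAG2_deficient groups are femoral cells labelled B cells, of C57BL6 background, lysed without culture. The RAG2-deficient mice lack a recombinase that B and T cells need to mature, deltaEmu names the loss of the heavy chain enhancer Eµ, and 2KO is not spelled out, although the design text names mice deficient for 5′Eµ and the 3′ regulatory region. All animals were 8 to 10 weeks old, RNAs were pooled from several mice, and no femoral group from unmodified mice was analysed here. Replicates are numbered 4_et_7 and 6_et_8 in both spleen groups, 1 and 3 in 2KO, 5 and 7 in deltaEmu and 1 and 2 in RAG2_deficient, and paired values below keep this order. The RAG2_deficient numbers are those of the titles, and the descriptions number the same libraries 2 and 3. Because the pools are the replicates, the p-values measure the spread between pools only.

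Type I interferons bind a receptor made of IFNAR1 and IFNAR2, whose kinases JAK1 and TYK2 pass the signal on. STAT2 and IRF9 are then part of a complex that binds the interferon-stimulated response element (ISRE) in front of the target genes. Many targets also respond to IRF3 and IRF7 downstream of nucleic acid sensors and of the LPS receptor, and histone deacetylase activity is known from cell culture work to be needed for their full induction.

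Libraries held 17710154 to 25544275 gene counts. Levels are CPM (a gene's reads relative to all gene reads of a library), scaled by TMM factors over all 10 libraries. Columns of the table carry numbers only and were assigned by the S number that ends each sample description. The numbers in the sample titles would assign 8 of 10 columns differently, so each comparison below rests on this choice. With the S number, Rag1, a recombinase gene of immature lymphocytes, lay at 0 to 0.0418 CPM in the spleen libraries and at 141 to 920 CPM in the femoral libraries. SAHA is given to one pair of spleen samples by the descriptions, which were followed, and to the other pair by the titles and treatment labels. If the titles are right on this point, each difference between LPS_IL4_SAHA and LPS_IL4 changes sign, and the comparison of LPS_IL4 with the femoral groups is one of SAHA-treated cells. The femoral libraries held RNA of several lineages. Summed neutrophil markers (10 genes) lay at no more than 0.459 CPM in spleen libraries and at 7025 to 21194 CPM in femoral libraries. Summed erythroid markers (9 genes) lay at no more than 5.43 CPM in spleen and at 2457 to 15436 CPM in femoral libraries. Summed stromal markers (8 genes) lay at no more than 0.215 CPM in spleen and at 1245 to 7659 CPM in femoral libraries. The labelled B cells were checked by 10 mature B cell markers, whose sum was 5199 to 7521 CPM in spleen and 542 to 1131 CPM in femoral libraries. Pro-B cell markers (10 genes) ran the other way, with sums of 77.1 to 171 CPM in spleen and 729 to 3051 CPM in femoral libraries. Within the femur their sums were 729 to 1124 CPM in 2KO and deltaEmu and 2715 and 3051 CPM in RAG2_deficient, and 6 of 10 fell in 2KO and 6 of 10 in deltaEmu against RAG2_deficient by edgeR. In 2KO 1 the largest parts of the mature B cell sum were Cd74, H2-Aa and H2-Ab1, at 216, 162 and 134 CPM. Ms4a1, another of these 10 markers, had 0.286 and 0.267 CPM in 2KO, 16.7 and 23.0 CPM in deltaEmu and 1.07 and 0.388 CPM in RAG2_deficient. Against RAG2_deficient, edgeR called 7 of the 10 higher and 0 lower in deltaEmu, and 2 higher and 1 lower in 2KO. Fewer cells of a type and less RNA per cell cannot be told apart in such bulk samples. Summed Y-linked transcripts lay at 184 to 345 CPM in the spleen libraries, 110 to 162 CPM in 2KO and deltaEmu and at most 0.296 CPM in RAG2_deficient, so the sex makeup of the pools differed between groups too.

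Each of the 36 genes had counts in all 6 femoral libraries, and 35 had counts in all 4 spleen libraries, the exception being Ifi44l. The summed level of the 36 genes was 2022 ± 106 CPM in LPS_IL4_SAHA, 2301 ± 356 CPM in LPS_IL4, 1582 ± 541 CPM in 2KO, 1894 ± 611 CPM in deltaEmu and 1739 ± 46.2 CPM in RAG2_deficient (SD, n = 2 each). Per kilobase of exon, the median gene stood at 12.5 CPM in LPS_IL4_SAHA, 13.2 CPM in LPS_IL4, 8.17 CPM in 2KO, 12.3 CPM in deltaEmu and 10.2 CPM in RAG2_deficient. The group order changed from gene to gene: LPS_IL4 and deltaEmu each held the highest mean for 12 genes, LPS_IL4_SAHA for 7, RAG2_deficient for 3 and 2KO for 2, while 2KO held the lowest mean for 19. The gene with the highest level per kilobase also differed by tissue. It was Isg15, a ubiquitin-like protein that is attached to other proteins, in LPS_IL4_SAHA (122 CPM per kb) and LPS_IL4 (113 CPM per kb), and Bst2, also called tetherin, which holds budding virus at the cell surface, in 2KO (99.4 CPM per kb), deltaEmu (107 CPM per kb) and RAG2_deficient (119 CPM per kb).

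**Figure D1:**
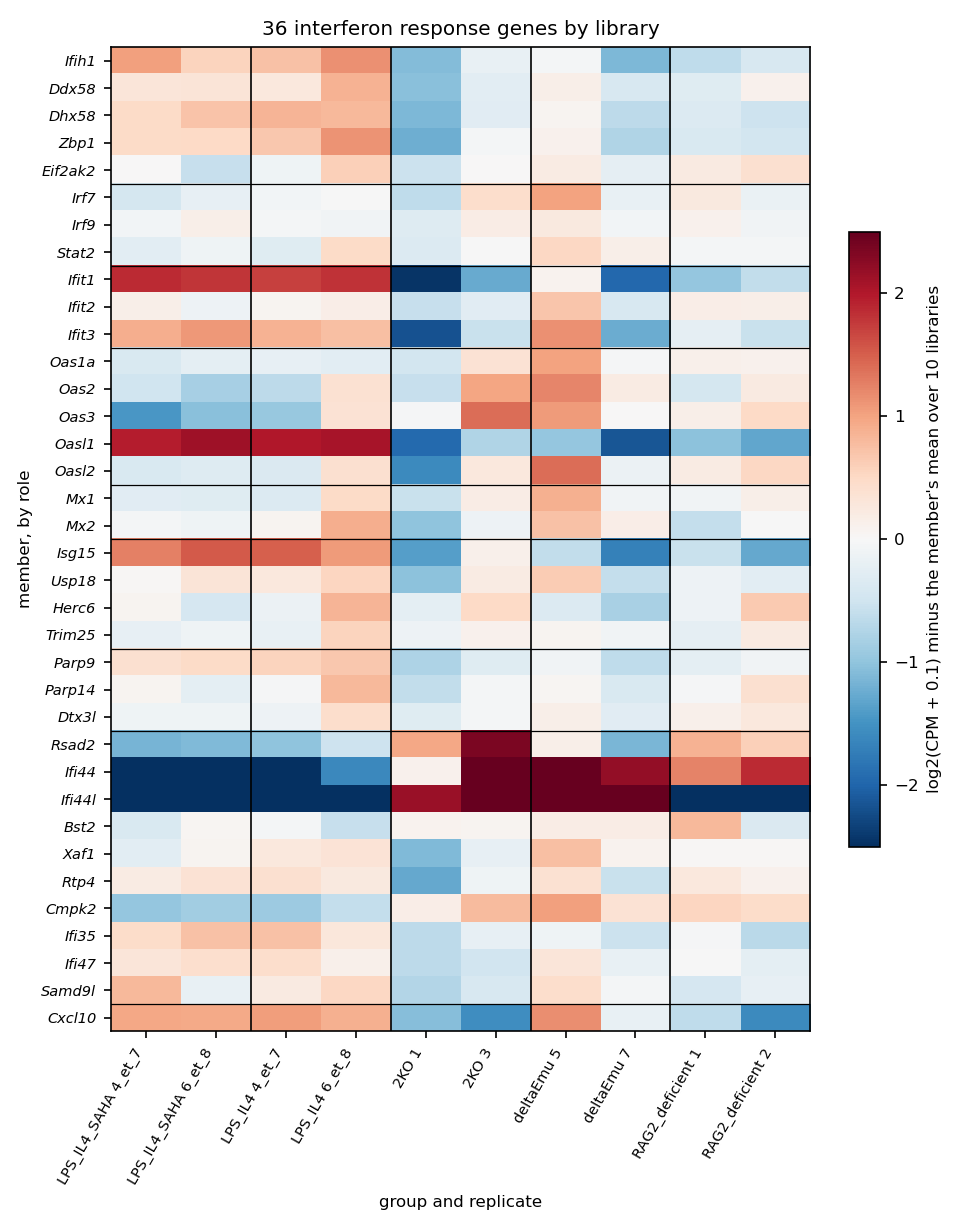
Level of each of the 36 genes (rows, by role) in each of the 10 libraries (columns, by group and replicate), as log2(CPM + 0.1) minus that gene's mean over the libraries. Colours saturate at 2.5 in either direction. Oasl1, Ifit1 and Isg15 are red in all 4 spleen libraries, Ifi44 and Ifi44l are blue there, and most rows are redder in 2KO 3 than in 2KO 1 and in deltaEmu 5 than in deltaEmu 7.

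The genes share sequence features that were not used to choose them. RefSeq start sites of the files' genome build (GRCm38.p6) could be matched for 27 of the 36 genes, and the windows from 250 bases before to 50 bases after the start were searched for a plain form of the ISRE, GAAA followed by 2 bases of any kind and GAAA, on both strands, with overlapping matches kept. It was found for 12 of 27 genes (44.4%), against 624 of 18634 genes of the table with a window (3.35%). The interferon gamma element (TTC, 3 bases of any kind, GAA) was found for 5 of 27 (18.5%), against 7.95% of all windows. The 150 bases before the start are printed, 5′ to 3′ on the gene's own strand, for 6 genes on which the values below turn, and 250 bases for Ifit3, whose matches lie farther out. The sequences are from RefSeq, and capitals mark ISRE matches. A match is a description of these letters, and its absence says nothing of the factor. Positions are Isg15 at chr4:156200819-156200968, minus strand; Ifit1 at chr19:34640739-34640888, plus strand; Ifit3 at chr19:34583279-34583528, plus strand; Rsad2 at chr12:26456453-26456602, minus strand; Bst2 at chr8:71537473-71537622, minus strand; Ifi44 at chr3:151749911-151750060, minus strand; and Ifi44l at chr3:151762892-151763041, minus strand.
Isg15: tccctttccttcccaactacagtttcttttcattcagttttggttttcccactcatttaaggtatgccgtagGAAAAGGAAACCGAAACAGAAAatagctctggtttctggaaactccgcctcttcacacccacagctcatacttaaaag
Ifit1: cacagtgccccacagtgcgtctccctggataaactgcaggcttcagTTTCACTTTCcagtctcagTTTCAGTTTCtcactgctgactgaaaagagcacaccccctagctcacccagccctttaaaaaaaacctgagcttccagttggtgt
Ifit3: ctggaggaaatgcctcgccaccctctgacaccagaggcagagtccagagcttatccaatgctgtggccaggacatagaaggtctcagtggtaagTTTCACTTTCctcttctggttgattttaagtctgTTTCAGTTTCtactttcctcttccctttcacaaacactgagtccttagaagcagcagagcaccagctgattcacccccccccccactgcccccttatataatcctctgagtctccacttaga
Rsad2: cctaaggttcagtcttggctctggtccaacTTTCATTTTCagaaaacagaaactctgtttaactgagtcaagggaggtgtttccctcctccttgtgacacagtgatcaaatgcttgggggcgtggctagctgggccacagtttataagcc
Bst2: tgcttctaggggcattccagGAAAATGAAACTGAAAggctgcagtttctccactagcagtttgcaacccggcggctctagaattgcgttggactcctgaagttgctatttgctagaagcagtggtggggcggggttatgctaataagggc
Ifi44: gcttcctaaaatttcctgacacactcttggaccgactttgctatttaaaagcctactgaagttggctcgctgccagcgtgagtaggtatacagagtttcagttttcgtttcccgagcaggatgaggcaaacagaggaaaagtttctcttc
Ifi44l: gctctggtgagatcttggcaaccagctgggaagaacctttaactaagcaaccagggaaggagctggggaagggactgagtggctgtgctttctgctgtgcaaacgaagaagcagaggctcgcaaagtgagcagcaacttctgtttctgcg
Isg15 had 3 overlapping matches that begin 78, 72 and 66 bases before the start, Ifit1 had 2 at 104 and 85 bases, Ifit3 had 2 at 156 and 122 bases and Bst2 had 2 at 130 and 124 bases. Rsad2 had 1 match at 120 bases, and Cxcl10 had 1 at 213 bases. Ifi44, Ifi44l and Oasl1 had none in their windows.

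Several of the genes are neighbours. Ifit2, Ifit3 and Ifit1 lie on chromosome 19, with 7.11 kb between Ifit2 and Ifit3 and 52.1 kb between Ifit3 and Ifit1. Oas1a, Oas3 and Oas2 and, apart from them, Oasl2 and Oasl1 (11.0 kb between the last pair) lie on chromosome 5. Mx1 and Mx2 lie on chromosome 16, 72.4 kb apart, as do Parp14, Dtx3l and Parp9. Rsad2 and Cmpk2 on chromosome 12 are 12.8 kb apart, and Ifi44 and Ifi44l on chromosome 3 are 8.78 kb apart. Some counts are uncertain because exons overlap those of another gene. This holds for Parp9 with Dtx3l on opposite strands, for Irf7 with Phrf1 on opposite strands for Irf9 with Rnf31 and Ifi47 with Olfr56 on the same strand, and for Eif2ak2 with Gm26637 on opposite strands, and it holds for Ifit3 and Oas1a through close paralogs. The libraries were made with a stranded kit, but the strand setting of the counting is not given in the sources used here.

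Most of the 36 genes moved together between replicates of the same genotype. In 2KO, 34 of 36 genes were higher in replicate 3 than in replicate 1, by a median of 1.78-fold, where 50.2% of the 16538 tested genes were higher and the median ratio was 1.00. In deltaEmu, 36 of 36 were higher in replicate 5 than in replicate 7, by a median of 1.87-fold, against 55.4% of all tested genes and a median ratio of 1.03. Ratios use CPM + 0.1, and in 2KO and deltaEmu the library with the higher levels was put on top after the values were seen. RAG2_deficient had no such shift: 16 genes were higher in replicate 2 and 20 in replicate 1. In the spleen, replicate 6_et_8 was above 4_et_7 for 22 of 35 genes in LPS_IL4_SAHA (median 1.05-fold) and for 25 of 35 in LPS_IL4 (median 1.22-fold).

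Single genes show the size of this spread. Ifit3, an RNA-binding antiviral protein, had 4.14 and 12.9 CPM in 2KO, 42.3 and 8.00 CPM in deltaEmu and 16.4 and 12.9 CPM in RAG2_deficient. Its 2KO and deltaEmu libraries overlapped, because the deltaEmu replicates differed 5.24-fold and the 2KO replicates 3.06-fold. Oasl2, an oligoadenylate synthetase relative, had 6.29 and 22.8 CPM in 2KO, 50.6 and 17.3 CPM in deltaEmu and 22.1 and 27.4 CPM in RAG2_deficient. Irf7, the factor that amplifies interferon production, had 36.3 and 76.7 CPM in 2KO, 113.6 and 49.5 CPM in deltaEmu and 67.1 and 50.1 CPM in RAG2_deficient. In both genes too, the femoral groups overlapped. Usp18, which removes ISG15 from proteins and restrains the receptor, had 10.1 and 23.7 CPM in 2KO, 32.2 and 13.5 CPM in deltaEmu and 18.9 and 17.2 CPM in RAG2_deficient. Mx1, a GTPase that blocks virus replication, had 23.1 and 38.7 CPM in 2KO, 63.0 and 32.3 CPM in deltaEmu and 31.9 and 37.7 CPM in RAG2_deficient. Oas1a, which makes the messenger that activates RNase L, had 20.6 and 36.3 CPM in 2KO, 56.7 and 27.9 CPM in deltaEmu and 30.9 and 30.4 CPM in RAG2_deficient. In each of these 3 genes, and in Ifit3, Oasl2 and Irf7, 2KO 1 was the lowest of the 6 femoral libraries and deltaEmu 5 the highest.

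Of the 36 genes, 34 (94.4%) were higher both in 2KO 3 and in deltaEmu 5, against 32.4% of all tested genes. The separate counts above already fix this joint count. Across the 36 genes the log2 ratio in 2KO and that in deltaEmu had a Pearson correlation of 0.538, and across the 16538 genes of 0.176. The sign of each correlation depends on which library was put on top in each group. Genes of a pathway are not independent, and the points share the 4 libraries. The exceptions in 2KO were Bst2, with 76.1 and 75.8 CPM, and Cxcl10, with 2.33 and 1.65 CPM. Bst2 was also level in deltaEmu, at 82.1 CPM in each library. The shift reached beyond the 36 genes: of 40 other interferon-stimulated genes, 34 were higher in 2KO 3 (median 1.20-fold) and 33 in deltaEmu 5 (median 1.33-fold). Of 15 genes of the interferon gamma list, 4 were higher in 2KO 3 and 14 in deltaEmu 5.

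Marker genes of other cells also differed between these replicates. Summed erythroid markers were 10435 and 15436 CPM in 2KO and 2457 and 2603 CPM in deltaEmu. Summed pro-B cell markers were 1107 and 729 CPM in 2KO and 810.1 and 1123.5 CPM in deltaEmu. Neutrophil markers were 11094 and 9252 CPM in 2KO and 18459 and 21194 CPM in deltaEmu, and markers of plasmacytoid dendritic cells, the main producers of interferon alpha, were 889 and 834 CPM in 2KO and 1062 and 1042 CPM in deltaEmu. Thus 0 of 10 pro-B markers were higher in 2KO 3 and 1 of 10 in deltaEmu 5, erythroid markers were higher for 9 of 9 in 2KO 3 and for 3 of 9 in deltaEmu 5, and no marker of these 4 lists was at 0 counts in these 4 libraries. Monocyte and macrophage markers were higher for 2 of 9 in 2KO 3 (median 0.922-fold) and for 8 of 9 in deltaEmu 5 (median 1.13-fold). Natural killer cell markers were higher for 1 of 8 in 2KO 3 (median 0.685-fold) and for 7 of 8 in deltaEmu 5 (median 1.36-fold), with sums of 114 and 84.2 CPM in 2KO and 135 and 106 CPM in deltaEmu. The part of the cell mixture in the replicate difference was not tested.

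**Figure D2:**
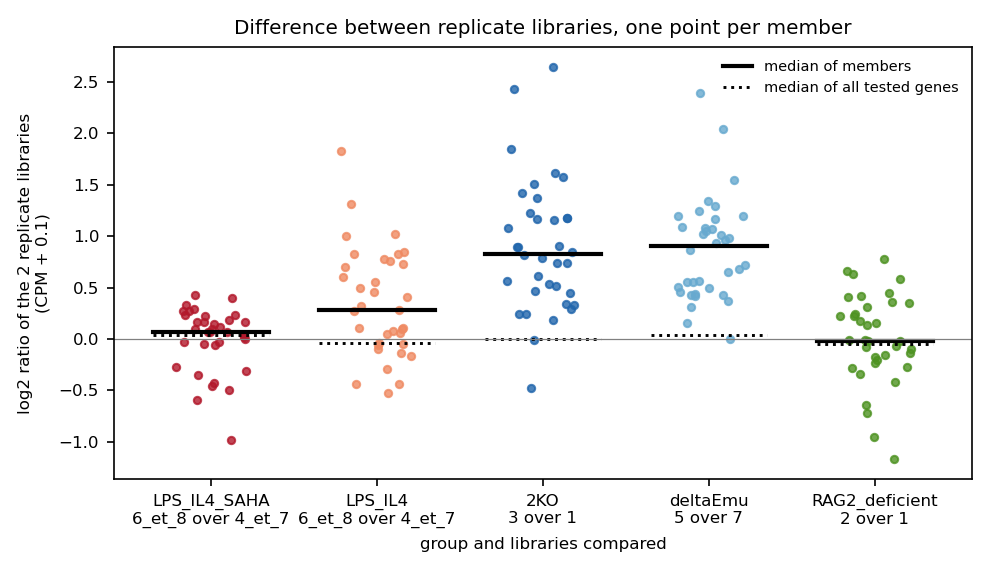
Log2 ratio of the 2 replicate libraries of each group (CPM + 0.1), with 1 point per gene, for 35 genes in the spleen groups and 36 in the femoral groups. Solid lines mark the median of the plotted genes and dotted lines the median of all tested genes. Nearly all points lie above 0 in 2KO and deltaEmu, and the points straddle 0 in RAG2_deficient.

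In LPS_IL4 and RAG2_deficient the replicate difference followed the summed exon length of the gene. Across the 35 genes of LPS_IL4 the log2 ratio of 6_et_8 over 4_et_7 and log exon length had a Pearson correlation of 0.745, and across the 36 genes of RAG2_deficient the ratio of 2 over 1 gave 0.765. All tested genes gave 0.338 in LPS_IL4 and 0.247 in RAG2_deficient. In LPS_IL4, the 6 genes under 2000 bases had a median ratio of 0.820 and the 12 genes over 5000 bases one of 1.64; in RAG2_deficient these medians were 0.713 and 1.26. The short Isg15 and Bst2 and the long Herc6 show it. Isg15 had 98.5 and 72.9 CPM in LPS_IL4 and 23.6 and 14.3 CPM in RAG2_deficient, Bst2 had 69.1 and 48.0 CPM in LPS_IL4 and 126 and 55.9 CPM in RAG2_deficient, and Herc6, a ligase that attaches ISG15 in mice, had 29.8 and 59.9 CPM in LPS_IL4 and 30.4 and 52.2 CPM in RAG2_deficient. In 2KO and deltaEmu the same correlation was -0.0636 and -0.185, and in LPS_IL4_SAHA, again 6_et_8 over 4_et_7, it was -0.513. The sources used here give no RNA quality values, and the part of RNA integrity was not tested.

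**Figure D3:**
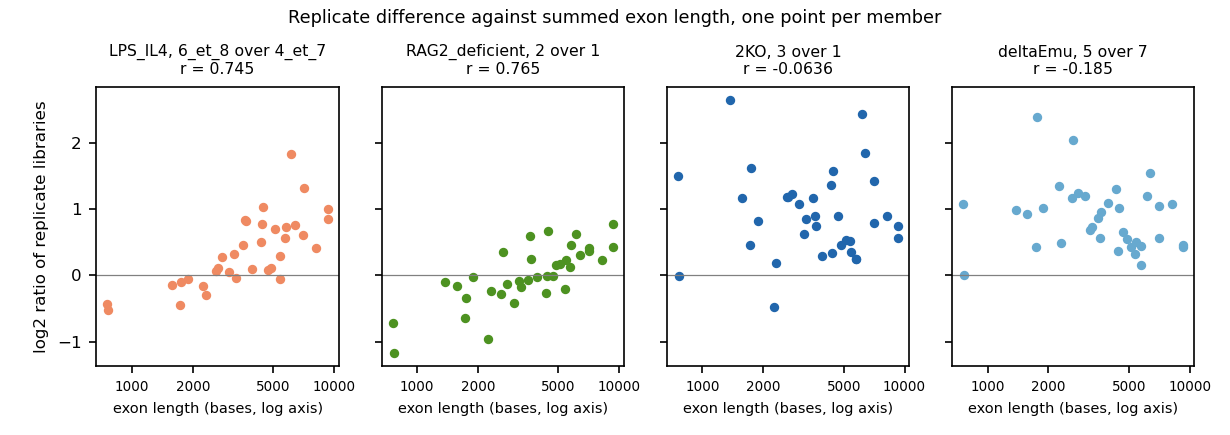
Log2 ratio of the 2 replicate libraries (CPM + 0.1) against summed exon length in bases on a log axis, 1 point per gene, in 4 groups. The ratio increases with length in LPS_IL4 (r = 0.745) and RAG2_deficient (r = 0.765), whereas r is -0.0636 in 2KO and -0.185 in deltaEmu.

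In spleen cells, SAHA was compared with no SAHA after 48 h with LPS and IL4. With edgeR's quasi-likelihood test and Benjamini-Hochberg adjustment over 13913 genes, 0 of 35 tested genes rose and 0 fell, and the background was the same, with percentages called of 0 for higher and 0 for lower. Oas3 alone had an unadjusted p under 0.05 (0.0464), and DESeq2 called 0 of the 35. The fold changes leaned one way: 28 of 35 were below 0, and the median log2 fold change was -0.28, against -0.03 over all tested genes, of which 46.7% were above 0. This median was -0.08 without LPS_IL4 6_et_8. Without LPS_IL4 4_et_7, which leaves LPS_IL4 6_et_8 alone in its group, it was -0.35. The part of the length-linked difference between the LPS_IL4 libraries in these values was not tested.

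The transcription factors behind the response had counts in all spleen libraries and gave no call. Stat2 had 41.1 and 46.0 CPM in LPS_IL4_SAHA, against 39.9 and 68.7 CPM in LPS_IL4. Irf9 had 76.4 and 89.7 CPM in LPS_IL4_SAHA, against 78.1 and 75.3 CPM in LPS_IL4. Irf7 had 41.6 and 48.7 CPM in LPS_IL4_SAHA, against 53.8 and 55.8 CPM in LPS_IL4. Only the Irf7 libraries did not overlap, and its log2 fold change of -0.32 ± 0.20 (SE) had an adjusted p of 0.939. Of the 35 tested genes, 1 was higher and 8 were lower in LPS_IL4_SAHA without overlap. Of all tested genes, 15.7% were higher and 10.2% lower without overlap. Effectors are given next. Isg15 had 83.8 and 101 CPM in LPS_IL4_SAHA, against 98.5 and 72.9 CPM in LPS_IL4, with a log2 fold change of 0.07 ± 0.24. Ifit1, which binds viral RNA caps, had 64.9 and 62.2 CPM in LPS_IL4_SAHA, against 58.2 and 62.8 CPM in LPS_IL4. Ifit3 had 35.8 and 40.8 CPM in LPS_IL4_SAHA, against 34.8 and 32.4 CPM in LPS_IL4, and these libraries did not overlap although the log2 fold change was only 0.15 ± 0.19. Cxcl10, a chemokine that attracts activated T cells, had 9.86 and 9.69 CPM in LPS_IL4_SAHA, against 10.4 and 9.32 CPM in LPS_IL4.

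In Ddx58, Mx1 and Oasl2, LPS_IL4 6_et_8 stood above the other 3 spleen libraries. Ddx58, which encodes the RNA sensor RIG-I, had 62.2 and 63.5 CPM in LPS_IL4_SAHA, against 60.6 and 92.3 CPM in LPS_IL4. Mx1 had 28.1 and 27.5 CPM in LPS_IL4_SAHA, against 26.7 and 47.4 CPM in LPS_IL4, and Oasl2 had 14.6 and 15.3 CPM in LPS_IL4_SAHA, against 14.9 and 25.2 CPM in LPS_IL4. In all 3 genes both SAHA libraries stood close to LPS_IL4 4_et_7. Oas1a had 21.7 and 24.0 CPM in LPS_IL4_SAHA, against 24.5 and 23.6 CPM in LPS_IL4, and Usp18 had 21.1 and 25.8 CPM in LPS_IL4_SAHA, against 24.6 and 29.8 CPM in LPS_IL4. Bst2 had 54.9 and 73.9 CPM in LPS_IL4_SAHA, against 69.1 and 48.0 CPM in LPS_IL4, and Rsad2, the antiviral enzyme viperin, had 18.1 and 18.9 CPM in LPS_IL4_SAHA, against 20.2 and 28.5 CPM in LPS_IL4. Rsad2 was the one of these 4 whose libraries did not overlap, with a log2 fold change of -0.44 ± 0.24 and an adjusted p of 0.939.

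Among the femoral groups, Ifi44l was the one gene of the 36 that passed the test. It encodes a relative of IFI44 that is induced by interferon, and it lies on chromosome 3 at 151758737 to 151762892 on the minus strand. It was counted 82 and 562 times in 2KO, 1065 and 463 times in deltaEmu and 1 time in each RAG2_deficient library, and had no count in the 4 spleen libraries. As levels Ifi44l had 3.90 and 25.0 CPM in 2KO, 52.5 and 26.4 CPM in deltaEmu and 0.0593 and 0.0485 CPM in RAG2_deficient. The 2KO and deltaEmu libraries all stood far above both RAG2_deficient libraries.

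For 2KO against RAG2_deficient the ratio of summed Ifi44l counts, scaled by library size, was 278 with a 95% counting interval of 76.6 to 2300, which covers counting error only, and edgeR's adjusted p was 0.0227. It was 0.0504 without deltaEmu 7, 0.0735 without RAG2_deficient 2 and 0.0549 with only the 4 libraries of these groups. For deltaEmu against RAG2_deficient the ratio was 758 (209 to 6260) and the adjusted p 0.00521, and the gene was called under all 12 alternatives. Between 2KO and deltaEmu the log2 fold change was -1.43 and the adjusted p 0.378. Its neighbour Ifi44, a relative of the same family, was not split this way. Ifi44 had 9.90 and 53.7 CPM in 2KO, 97.9 and 42.7 CPM in deltaEmu and 21.9 and 34.0 CPM in RAG2_deficient, so RAG2_deficient lay inside the 2KO range. The log2 fold change of Ifi44 was 0.15 ± 0.69 for 2KO against RAG2_deficient and 1.28 ± 0.69 for deltaEmu against RAG2_deficient, with adjusted p of 0.943 and 0.293. Genotype, sex and cell mixture differed together between these groups and cannot be told apart here.

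**Figure D4:**
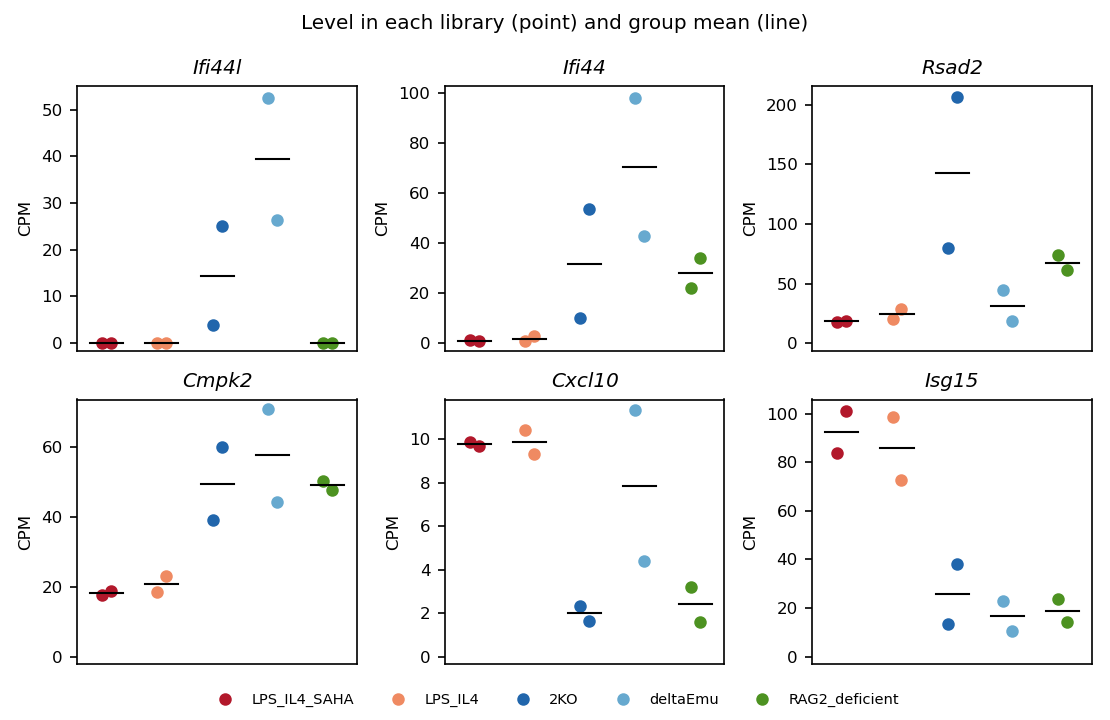
Level in CPM of 6 genes in each library (points) and the group mean (line), with groups from left to right in the order of the legend. Ifi44l is at or near 0 in the spleen and RAG2_deficient libraries, Rsad2 is highest in 2KO, and Isg15 and Cxcl10 lie higher in the spleen groups than in 2KO and RAG2_deficient.

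The 3 femoral comparisons share libraries, so each is given by its own values. For 2KO against deltaEmu, 0 of 36 genes rose and 0 fell by edgeR, where 1.79% of the 16538 tested genes were called higher and 1.91% lower. At an unadjusted p under 0.05 there were 7 genes, and DESeq2 called 2, Rsad2 as higher and Cxcl10 as lower. For 2KO against RAG2_deficient, 1 rose (Ifi44l) and 0 fell, with 1.26% and 3.05% of all tested genes called higher and lower. For deltaEmu against RAG2_deficient, 1 rose (Ifi44l) and 0 fell, with 4.42% and 5.39% called higher and lower. The median log2 fold change was -0.40, -0.19 and 0.13 in these comparisons, against -0.01, 0.00 and -0.01 over all tested genes, and it turned with single libraries. Without deltaEmu 5 it was 0.04 for 2KO against deltaEmu and -0.30 for deltaEmu against RAG2_deficient. Without 2KO 1 it was -0.04 for 2KO against deltaEmu and 0.11 for 2KO against RAG2_deficient. For 2KO against deltaEmu, 2 of the 36 genes were higher and 8 lower without overlap of libraries, against 26.4% and 30.6% of all tested genes. These counts were 2 and 10 for 2KO against RAG2_deficient, against 25.5% and 21.8% of all tested genes. They were 7 and 3 for deltaEmu against RAG2_deficient, against 28.3% and 24.4%.

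Rsad2 and Cxcl10 had the largest fold changes of the 36 genes between 2KO and deltaEmu, in opposite directions. Rsad2 had 79.8 and 206 CPM in 2KO, 44.9 and 18.2 CPM in deltaEmu and 74.0 and 61.2 CPM in RAG2_deficient. The 3 groups did not overlap, with 2KO highest and deltaEmu lowest. For 2KO against deltaEmu its log2 fold change was 2.20 ± 0.51, with an adjusted p of 0.0639 by edgeR and of 0.000119 by DESeq2, and it passed under 7 of 12 alternatives. Cmpk2, the nucleotide kinase gene next to it, had 39.0 and 59.8 CPM in 2KO, 70.8 and 44.1 CPM in deltaEmu and 50.3 and 47.6 CPM in RAG2_deficient, and its groups overlapped. Cxcl10 had 2.33 and 1.65 CPM in 2KO, 11.3 and 4.40 CPM in deltaEmu and 3.20 and 1.60 CPM in RAG2_deficient, so both deltaEmu libraries were above the other 4. Its log2 fold change was -1.97 ± 0.51 for 2KO against deltaEmu, with adjusted p of 0.0966 by edgeR and 0.00641 by DESeq2, and 1.68 ± 0.51 for deltaEmu against RAG2_deficient, with adjusted p of 0.0837 and 0.0181. Summed monocyte and macrophage markers were 4057 and 3585 CPM in 2KO, 6389 and 5676 CPM in deltaEmu and 3602 and 2531 CPM in RAG2_deficient, with 0 of 9 at 0 counts in any of these libraries, and their part in the Cxcl10 level was not tested.

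The remaining named genes overlapped between most femoral groups. Stat2 had 38.9 and 48.9 CPM in 2KO, 70.9 and 54.7 CPM in deltaEmu and 47.7 and 47.5 CPM in RAG2_deficient. Its deltaEmu libraries were above the other 4, with an adjusted p of 0.235 for 2KO against deltaEmu. Irf9 had 64.1 and 91.8 CPM in 2KO, 95.9 and 77.1 CPM in deltaEmu and 87.1 and 75.4 CPM in RAG2_deficient. Ddx58 had 24.3 and 42.2 CPM in 2KO, 56.3 and 38.2 CPM in deltaEmu and 40.8 and 54.3 CPM in RAG2_deficient. Isg15 had 13.4 and 38.1 CPM in 2KO, 22.8 and 10.7 CPM in deltaEmu and 23.6 and 14.3 CPM in RAG2_deficient. In these 3 genes every pair of femoral groups overlapped. Ifit1 had 3.19 and 7.35 CPM in 2KO, 18.9 and 4.51 CPM in deltaEmu and 9.13 and 11.7 CPM in RAG2_deficient, and both 2KO libraries were below RAG2_deficient (log2 fold change -1.01 ± 0.62, adjusted p 0.441). Bst2 had 76.1 and 75.8 CPM in 2KO, 82.1 and 82.1 CPM in deltaEmu and 126 and 55.9 CPM in RAG2_deficient, so its spread lay in the RAG2_deficient pair. By family, 0 of 3 Ifit, 0 of 5 Oas, 0 of 2 Mx and 0 of 5 sensor genes passed in any of the 3 femoral comparisons by edgeR. At an unadjusted p under 0.05, Mx2 was lower in 2KO than in deltaEmu and Eif2ak2 lower in 2KO than in RAG2_deficient, and DESeq2 called none of these families' genes.

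LPS_IL4 was set beside the mean of the 3 femoral groups to place the levels of cultured spleen cells. Tissue, culture, stimulation, possibly strain, sex and cell mixture all differ here and cannot be told apart. In a fit of all 10 libraries, 11 of 36 genes rose (30.6%) and 4 fell (11.1%), where 26.6% of 17483 tested genes were called higher and 34.6% lower. The median log2 fold change was 0.40, against -0.15 over all tested genes. The share of the genes that rose was therefore near the background, and the share that fell was below it. Without LPS_IL4 6_et_8 the median log2 fold change of the 36 genes was 0.18. Without overlap of libraries, 9 of the 36 genes were higher and 3 lower in LPS_IL4, against 25.1% and 34.1% of all tested genes.

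Of the 5 sensors, 4 rose. Ifih1, which encodes the RNA sensor MDA5, averaged 132 CPM in LPS_IL4 and 47.5 CPM in the femoral groups (2.79-fold, adjusted p 0.00152 by edgeR). Dhx58, which encodes LGP2, a regulator of the RNA sensors, rose 2.43-fold (adjusted p 0.000836). Zbp1, a sensor of Z-form nucleic acid, averaged 46.6 CPM in LPS_IL4 and 18.7 CPM in the femoral groups (log2 1.32 ± 0.29, adjusted p 0.0028). Ddx58 averaged 76.5 CPM in LPS_IL4 and 42.7 CPM in the femoral groups (1.82-fold, adjusted p 0.0115), and lost the call without LPS_IL4 6_et_8 (adjusted p 0.0737). The kinase PKR gene Eif2ak2 was at 108 CPM in LPS_IL4 and 90.7 CPM in the femoral groups and was not called. Of the transcription factors Irf7, Irf9 and Stat2, 0 of 3 were called by edgeR, 0 of 3 by DESeq2, 0 of 3 had an unadjusted p under 0.05, and their log2 fold changes lay between -0.24 and 0.10.

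The largest rises were in single members of effector families. Oasl1, which restrains translation of Irf7 messenger RNA in mice, had 132 and 137 CPM in LPS_IL4, against 8.52 and 19.5 CPM in 2KO, 16.8 and 7.42 CPM in deltaEmu and 16.2 and 13.3 CPM in RAG2_deficient. Both LPS_IL4 libraries were above all 6 femoral libraries, by 9.88-fold in the fit (log2 3.30 ± 0.30, adjusted p 1.04e-05). Its neighbour Oasl2 averaged 20.0 CPM in LPS_IL4 and 24.4 CPM in the femoral groups, with a log2 fold change of -0.20 ± 0.48. Ifit1 averaged 60.5 CPM in LPS_IL4 and 9.12 CPM in the femoral groups (6.99-fold, adjusted p 0.000188). Ifit3 averaged 33.6 and 16.1 CPM in the same order, with an adjusted p of 0.0617, and Ifit2 41.8 and 38.8 CPM, with an adjusted p of 0.654, so the 3 neighbours gave unlike values. Isg15 averaged 85.7 CPM in LPS_IL4 and 20.5 CPM in the femoral groups (4.25-fold, adjusted p 0.000705), and Cxcl10 9.88 and 4.09 CPM (2.95-fold, adjusted p 0.00284). Parp9, a subunit of a ligase complex with DTX3L, Ifi35 and the GTPase gene Ifi47 were the other genes that rose, by 1.95-, 1.83- and 1.41-fold. Without LPS_IL4 4_et_7 the adjusted p was 0.0635 for Ifi35 and 0.187 for Ifi47, and without deltaEmu 7 it was 0.0516 for Ifi47.

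The 4 genes that fell all belong to the mixed group of other antiviral effectors. Ifi44 had 0.753 and 2.93 CPM in LPS_IL4, against at least 9.90 CPM in every femoral library, with a log2 fold change of -4.38 ± 0.80 and an adjusted p of 0.00106. In LPS_IL4_SAHA it had 1.13 and 0.811 CPM. Ifi44l, with no count in spleen, was at least 128-fold lower in LPS_IL4 than the femoral mean when 3 counts are allowed in each LPS_IL4 library. Its adjusted p of 0.0305 was 0.107 without RAG2_deficient 1, 0.0938 without RAG2_deficient 2, 0.0535 without LPS_IL4 4_et_7 and 0.0603 without LPS_IL4 6_et_8. The neighbours Rsad2 and Cmpk2 were both lower. Rsad2 averaged 24.3 CPM in LPS_IL4 and 80.7 CPM in the femoral groups (log2 -1.47 ± 0.42, adjusted p 0.0123), with libraries that overlapped because deltaEmu 7 stood at 18.2 CPM, and its adjusted p was 0.0754 without LPS_IL4 4_et_7. Cmpk2 averaged 20.7 CPM in LPS_IL4 and 51.9 CPM in the femoral groups (log2 -1.32 ± 0.24, adjusted p 0.000865), with no overlap. The summed monocyte and macrophage markers were 126 to 186 CPM in LPS_IL4 and 2531 to 6389 CPM in the femoral libraries. Most of the LPS_IL4 sums came from Ly86, at 172 and 117 CPM, against 48.6 to 78.3 CPM in the femoral libraries. By edgeR, 1 of the 9 markers was higher in LPS_IL4 and 8 were lower. The part of these markers in the 4 genes was not tested.

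**Figure D5:**
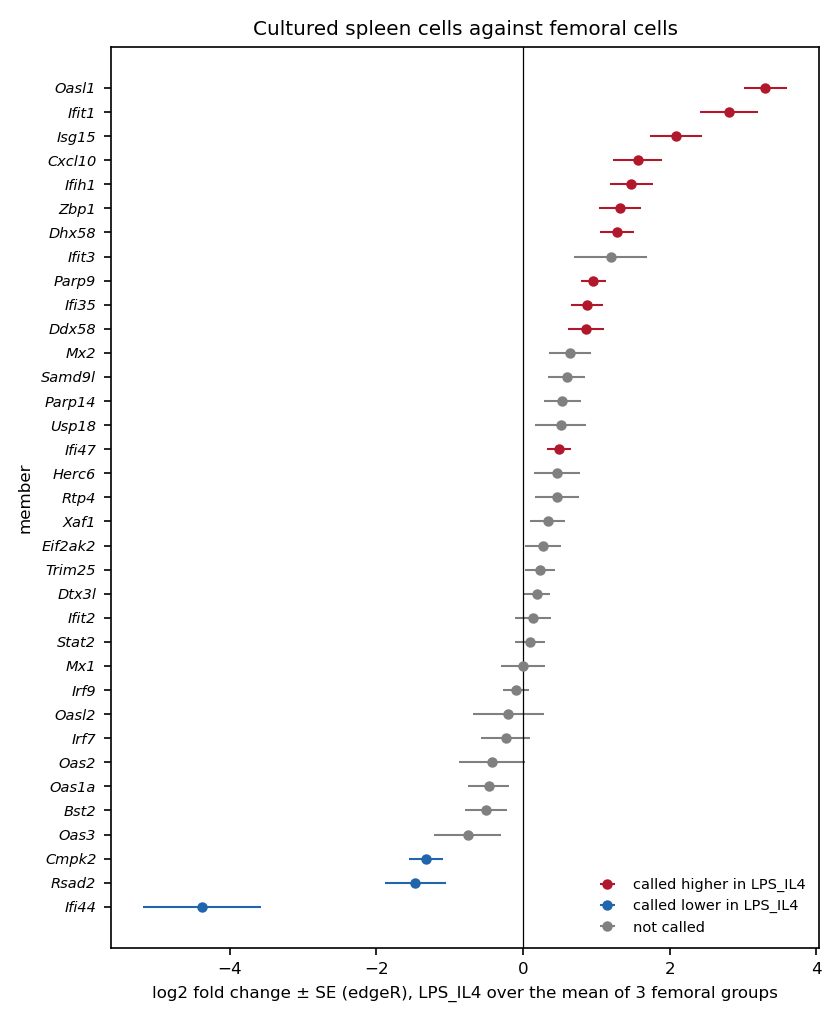
Log2 fold change with SE from edgeR for 35 genes, LPS_IL4 over the mean of the 3 femoral groups. Ifi44l is left out because it had no count in the spleen. Red marks 11 genes called higher in LPS_IL4, led by Oasl1 at 3.30, and blue marks Ifi44, Rsad2 and Cmpk2, called lower.

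Genes of the pathway around these targets were counted from lists of known members. Of 18 genes for type I interferons themselves, 15 to 18 had no count in each library, and their summed level was at most 0.209 CPM. Ifnb1, for interferon beta, was counted 2 and 0 times in LPS_IL4_SAHA, 0 and 1 times in LPS_IL4, 0 times in both 2KO libraries, 3 and 1 times in deltaEmu and 0 and 1 times in RAG2_deficient. Ifna4, for an interferon alpha, was counted 2 and 1 times in LPS_IL4_SAHA, 1 and 3 times in LPS_IL4 and 0 times in all 6 femoral libraries. None of the 18 had enough counts to be tested, and a count of 0 allows up to 3 counts, so no difference in interferon transcripts was detectable at this depth. The receptor genes Ifnar1 and Ifnar2 and the kinase genes Jak1 and Tyk2 were present in all libraries. Ifnar1 had 92.7 and 97.3 CPM in 2KO, 141.7 and 119 CPM in deltaEmu and 86.3 and 87.6 CPM in RAG2_deficient, and its deltaEmu libraries were above the other 4, with edgeR's adjusted p of 0.236 for 2KO against deltaEmu and 0.0805 for deltaEmu against RAG2_deficient, and DESeq2's of 0.0461 for deltaEmu against RAG2_deficient. Ifnar2 lay at 19.4 to 23.6 CPM in the spleen and 58.9 to 83.9 CPM in the femoral libraries, Tyk2 at 52.0 to 59.5 and 65.5 to 102.6 CPM, and Jak1 at 242 to 384 and 188 to 262 CPM. In LPS_IL4 over the femoral mean, Ifnar1 (log2 -0.76 ± 0.14), Ifnar2 (-1.79 ± 0.15) and Tyk2 (-0.69 ± 0.15) fell, and Jak1 was not called (0.45 ± 0.21).

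Other interferon-stimulated genes were called in each femoral comparison. Of 40 such genes, 2 were higher and 0 lower in 2KO than in deltaEmu, where 1.79% of all tested genes were called higher and 1.91% lower. Lower than in RAG2_deficient were 4 of 40 in 2KO, where 3.05% of all tested genes were called lower, and 3 of 40 in deltaEmu, where 5.39% were. The 2 genes higher in 2KO than in deltaEmu were Apobec3, a cytidine deaminase that restricts retroviruses, and Isg20, an RNA exonuclease. Apobec3 had 66.1 and 74.0 CPM in 2KO and 26.6 and 26.3 CPM in deltaEmu (adjusted p 0.00339 by edgeR). Isg20 had 35.1 and 62.5 CPM in 2KO and 20.8 and 14.7 CPM in deltaEmu (adjusted p 0.0403 by edgeR). Apobec3 was higher still in RAG2_deficient, at 145 and 152 CPM, and fell against it in 2KO (log2 -1.11 ± 0.15) and in deltaEmu (-2.53 ± 0.16). Its 6 femoral libraries formed 3 separate levels. Tnfsf10, which encodes the death ligand TRAIL, had 24.4 and 20.4 CPM in 2KO, 25.1 and 25.6 CPM in deltaEmu and 53.8 and 68.5 CPM in RAG2_deficient, and fell in both comparisons with RAG2_deficient (adjusted p 0.00718 for 2KO and 0.00575 for deltaEmu). Beside Apobec3 and Tnfsf10, 2 further genes of the list were lower in 2KO than in RAG2_deficient, Gbp7 and Ifit1bl1, and 1 was lower in deltaEmu, Slfn8. In LPS_IL4_SAHA against LPS_IL4, 0 of 38 tested were called by edgeR or DESeq2, and 0 of 38 had an unadjusted p under 0.05.

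Of 20 genes that carry nucleic acid and LPS signals towards interferon, 6 were higher and 4 lower in LPS_IL4 than in the femoral mean. In that comparison 26.6% of all 17483 tested genes were called higher and 34.6% lower. In the femoral comparisons Cd14, the LPS co-receptor of myeloid cells, was the one called. It had 84.9 and 51.3 CPM in 2KO, 144 and 112 CPM in deltaEmu and 24.0 and 8.44 CPM in RAG2_deficient, and rose in 2KO (adjusted p 0.0493) and deltaEmu (adjusted p 0.00905) against RAG2_deficient. Cd14 is also one of the monocyte and macrophage markers. From the interferon gamma list, Ciita, the master regulator of MHC class II, had 23.7 and 23.1 CPM in 2KO, 37.5 and 35.5 CPM in deltaEmu and 10.8 and 9.60 CPM in RAG2_deficient and rose in both groups against RAG2_deficient (adjusted p 0.0111 and 0.000975). Iigp1, a GTPase, fell in 2KO against RAG2_deficient (6.38 and 6.24 CPM in 2KO, 22.5 and 18.0 CPM in RAG2_deficient, adjusted p 0.0193), and Nlrc5, a regulator of MHC class I, fell in deltaEmu against RAG2_deficient (61.9 and 48.8 CPM in deltaEmu, 83.7 and 114 CPM in RAG2_deficient, adjusted p 0.0380). Of 13 tested genes that restrain interferon signalling, edgeR called 0 within the spleen and 0 in each femoral comparison. DESeq2 called 0 in the spleen, 0 for 2KO against deltaEmu, 1 for 2KO against RAG2_deficient and 2 for deltaEmu against RAG2_deficient, and at an unadjusted p under 0.05 these comparisons had 0, 2, 2 and 3.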

How the data were processed

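The 10 libraries were prepared from 500 ng of total RNA with a stranded kit, per the labels' protocols. The authors deposited raw read counts per gene in 1 table. Per the submitters' processing notes, STAR 2.4.0a and featureCounts from Subread 1.4.6-p1 were used with the mouse build mm10 (GRCm38), with no role stated. From these, 100 control entries were left out. Genes passed edgeR's filterByExpr with a minimum count of 10, and were tested with TMM factors and the quasi-likelihood F test (edgeR 4.0.16, R 4.3.3), with Benjamini-Hochberg adjustment over all tested genes and a threshold of 0.05. The spleen groups, the 3 femoral groups and all 10 libraries (LPS_IL4 against the femoral mean) each had their own fit. DESeq2 1.42.0 and other settings were alternatives, and the steps were checked on simulated data. Levels are CPM scaled by TMM factors; replicate ratios add 0.1 CPM. Promoter windows came from RefSeq (GRCm38.p6). The genes and lists were chosen with earlier results of these data known. Named genes were a preset set of best-known members plus called ones; others, such as Cmpk2, Ifi44 and Herc6, were named after their values were seen. The names 4_et_7 and 6_et_8 recur in both spleen groups and are read here as mouse numbers. The same pools may thus have been cultured with and without SAHA, which the labels do not state. Deviations of same-named libraries tended to run in opposite directions (Pearson correlation -0.467 over 13913 genes). The unpaired fit was kept.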

Additional observations from a re-analysis of the deposited data

How the results depend on the processing

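Without the filter on low counts, edgeR called 1 of the 36 genes for LPS_IL4_SAHA against LPS_IL4, where 145 of 23217 genes were called. It called 12 for 2KO against deltaEmu, where 1537 of 27469 genes were called. For 2KO against RAG2_deficient it called 6 (1971 of 27469 genes), and for deltaEmu against RAG2_deficient 8 (3308 of 27469 genes). For LPS_IL4 against the femoral mean it called 23, where 12055 of 28815 genes were called. The filtered fits called 0, 0, 1, 1 and 15 in these comparisons. DESeq2 called 2 for 2KO against deltaEmu (949 of 16538 genes) and 2 for deltaEmu against RAG2_deficient (2064 of 16538 genes). One fit of all 10 libraries called 1 for 2KO against deltaEmu (595 of 17483 genes). Fits of only the 4 libraries compared called 3 for 2KO against deltaEmu (1580 of 16105 genes) and 0 for 2KO against RAG2_deficient (213 of 16048). Leaving out each library in turn gave 0 to 13 calls for LPS_IL4_SAHA against LPS_IL4, with 13 of them without LPS_IL4 4_et_7, 0 to 3 for 2KO against deltaEmu, 0 to 1 for 2KO against RAG2_deficient, 1 to 4 for deltaEmu against RAG2_deficient, with 4 without RAG2_deficient 1, and 14 to 22 for LPS_IL4 against the femoral mean. In such fits a lone library is assumed to vary like the other groups. Calls over all tested genes also rose without LPS_IL4 4_et_7 for LPS_IL4_SAHA against LPS_IL4 and without RAG2_deficient 1 for deltaEmu against RAG2_deficient. They also rose for 2KO against deltaEmu without either RAG2_deficient library. Without 2KO 3, they fell for 2KO against deltaEmu and LPS_IL4 against the femoral mean, where calls among the 36 rose. Counts among the 36 genes alone therefore do not show a gain particular to them. Bst2 in deltaEmu against RAG2_deficient had a log2 fold change of -0.65 without RAG2_deficient 2 and of 0.51 without RAG2_deficient 1. The causes were not tested.

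A replicate block in the spleen called 0 genes. Deviations of same-numbered libraries had a correlation of -0.467 over 13913 genes, which does not show that their pools differ. A crossed block, chosen after seeing the data, also called 0. With 2 pools a group, an exact permutation test cannot go below a p of 0.333, so single genes rest on the spread shared across genes.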
